A study of Mus musculus with 10 samples.

Results

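RNA of femoral B cells from mice named 2KO was compared with RNA of femoral B cells from RAG2-deficient mice, across all genes outside chromosomes X and Y. The members are 4 of the 10 libraries of the series, 2KO replicates 1 and 3 and RAG2_deficient replicates 1 and 2, and 42781 of 46959 gene entries lie outside chromosomes X and Y. Both groups carry the C57BL6 strain label, an age of 8 to 10 weeks and no treatment. No label gives a genotype for 2KO or spells the name out. The design text of the series speaks of mice lacking 2 enhancers of IgH, the immunoglobulin heavy chain locus: the 5′ enhancer Eµ and the 3′ regulatory region (3′RR). It also speaks of RNA pools, so a library may hold several mice, and each p-value reflects the spread from library to library, which may be technical in part. A further femoral group, deltaEmu (replicates 5 and 7, same strain label and age), entered the fit to estimate the spread and is given where it places a value. Femoral cells of wild-type mice were not analysed here. The RAG2_deficient replicates carry the numbers 1 and 2 in their titles, as used here, and 2 and 3 in their descriptions.

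The IgH locus lies on mouse chromosome 12 on the reverse strand. Its V, D and J segments are cut and joined by the RAG1 and RAG2 recombinase in developing B cells, and without RAG2 no segment is joined and B cells stop as pro-B cells. Eµ lies in the intron between the J segments and the first constant gene, Ighm, and the 3′RR lies beyond the last constant gene, Igha. Before any joining, unrearranged segments are transcribed as germline RNA, which in mouse pro-B cells starts at Eµ and near DQ52 (Ighd4-1), the D segment closest to the J segments.

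Among the IgH genes, the difference was large at 5 short segments that lie between Eµ and the V segments. They are shown because RAG2-deficient cells cannot join them, so that RAG2_deficient reads over them come from the unjoined locus. A further reason is that nearly no read fell on them in 2KO. Sequences are from the GENCODE vM21 transcripts (GRCm38), 5′ to 3′ on the reverse strand. Capitals mark TGGGGNNNNGG, searched on the coding strand, the stretch that codes for the tryptophan and glycines shared by J segments. Ighd4-1 spans chr12:113430528-113430538, Ighj1 chr12:113429781-113429833, Ighj3 chr12:113429085-113429132 and Ighj4 chr12:113428514-113428567, while the entry of Ighj2 spans chr12:113429468-113429567.
Ighd4-1: ctaactgggac
Ighj1: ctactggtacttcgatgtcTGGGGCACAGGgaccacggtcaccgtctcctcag
Ighj2: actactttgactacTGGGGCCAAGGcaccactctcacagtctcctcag
Ighj3: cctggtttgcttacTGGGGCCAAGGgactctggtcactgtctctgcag
Ighj4: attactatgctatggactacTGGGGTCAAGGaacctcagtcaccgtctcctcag

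The 4 libraries held 17890591 to 20825349 counts on genes. Each table column was assigned through the index at the end of a sample's description. The titles number 8 of 10 columns differently and only the 2 RAG2_deficient columns the same. With the index, Rag1 lay at 152 CPM or more in the 6 femoral libraries and at 0.0391 CPM or less in the 4 spleen libraries (CPM, counts scaled to library size, here within all 10 libraries). The titles' numbering would make the 4 columns of low Rag1 the 2KO and deltaEmu libraries. In those columns the neutrophil gene S100a8 stood at 0.157 CPM or less, against 1530 CPM or more in the other 6. The comparison rests on the index and would not hold under the titles' numbering. The 4 Y-linked genes Ddx3y, Eif2s3y, Kdm5d and Uty summed to 120 and 113 CPM in 2KO and to 0.311 and 0 CPM in RAG2_deficient, so the pools differ in the sex of their mice. Sex and genotype cannot be told apart for genes outside X and Y. Markers of many marrow cells were present in all 4 libraries, with the erythroid list at 4868 to 20200 CPM and the late neutrophil list at 5496 to 9212 CPM, against 255.9 to 1393 CPM for the 6 components of the pre-B cell receptor. A level is therefore the level in a mixed sample, in which fewer cells of a type and less RNA per cell cannot be told apart.

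Of 16009 tested genes outside X and Y, 690 (4.31%) were called, that is, had an adjusted p of 0.05 or less in edgeR's quasi-likelihood test with Benjamini-Hochberg adjustment. Of these, 197 (1.23%) were higher in 2KO and 493 (3.08%) were lower. By size, 101 of the higher and 217 of the lower genes differed by over 4-fold, and the median log2 fold change of all tested genes was 0. The 2 libraries of one group lay wholly above the 2 of the other in all 690 called genes and in 7444 (46.5%) of all tested genes. The 2 RAG2_deficient libraries were further from each other (median absolute log2 ratio 0.37) than the 2KO libraries (0.18). Only 117 of the 690 calls, 48 higher and 69 lower, held in every alternative fit in which the gene was tested. The number of calls fell to 145 without 2KO replicate 3, to 332 without 2KO replicate 1, to 214 and 213 without deltaEmu replicate 5 and 7, and to 204 when the 4 libraries were fitted alone. It rose to 3131 without RAG2_deficient replicate 1. The counts below are given with this range where it moves them. Each count of calls in a list is to be set beside the shares over all tested genes, 1.23% higher and 3.08% lower.

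**Figure D1:**
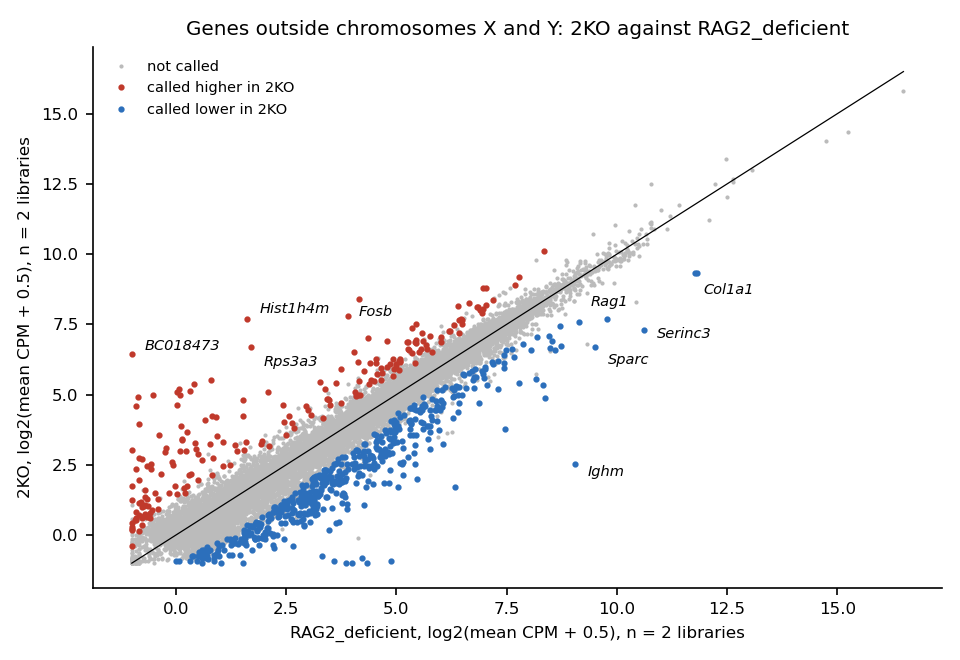
Mean level of each tested gene outside chromosomes X and Y in 2KO (vertical axis) against RAG2_deficient (horizontal axis), both as log2(mean CPM + 0.5) over 2 libraries; the line marks equal levels. The 197 genes called higher in 2KO (red) lie above the line and the 493 called lower (blue) below it, with Ighm farthest below among abundant genes.

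Reads over the IgH constant, D and J entries were almost absent in 2KO and present in RAG2_deficient, whereas V segments differed less. Ighm, the µ constant gene (chr12:113418558-113422730), stood at 4.50 and 6.11 CPM in 2KO, at 511 and 555 CPM in RAG2_deficient and at 479 and 577 CPM in deltaEmu. The 2KO libraries were far below all 4 others, which overlapped each other. The log2 fold change of Ighm was -6.65 ± 0.29 (SE, adjusted p = 0.000156). Ighd, the δ constant gene, had no count in 2KO against 9.39 and 18.6 CPM in RAG2_deficient (at least 97.7-fold lower, with 3 counts per library as the floor, adjusted p = 0.00318). Ighg2b, the γ2b constant gene, fell from 2.67 and 2.32 CPM to 0.297 and 0.276 CPM (log2 fold change -3.09 ± 0.31, adjusted p = 0.00245). These 3 of the 8 constant genes were called lower, and the other 5 were at or under 3 counts per library in both groups. Their calls held in every alternative fit in which they were tested.

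The D-J stretch, which is unjoined in RAG2_deficient, behaved in the same direction. Whether these segments were joined in 2KO was not tested, so joining and lower transcription cannot be told apart there. Ighd4-1 had 31.2 and 26.5 CPM in RAG2_deficient, and 1 count in 2KO over both libraries together. The ratio of RAG2_deficient to 2KO was 1201 (95% exact counting interval 215 to 47485, covering counting error only), with adjusted p = 0.000595. The J segments closest to it, Ighj1 and Ighj2, had no count in 2KO against 17.8 and 21.7 CPM and 11.01 and 19.9 CPM in RAG2_deficient. They were at least 138-fold and 108-fold lower (adjusted p = 0.000289 and 0.00134). Ighj3 had 1 count in 2KO against 7.77 and 15.3 CPM (ratio 499, interval 89.1 to 19769, adjusted p = 0.00134). Ighj4 had 3 counts against 10.6 and 25.5 CPM (ratio 262, interval 89.4 to 1275, adjusted p = 0.00161). No library of 2KO came near those of RAG2_deficient at any of the 5 segments, and all 5 calls held in every alternative fit in which they were tested. Of the 17 D entries only Ighd4-1 passed the filter on low counts. The J segments summed to 1.85 and 2.73 CPM in deltaEmu, between the groups, whereas Ighm there was at the level of RAG2_deficient.

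**Figure D2:**
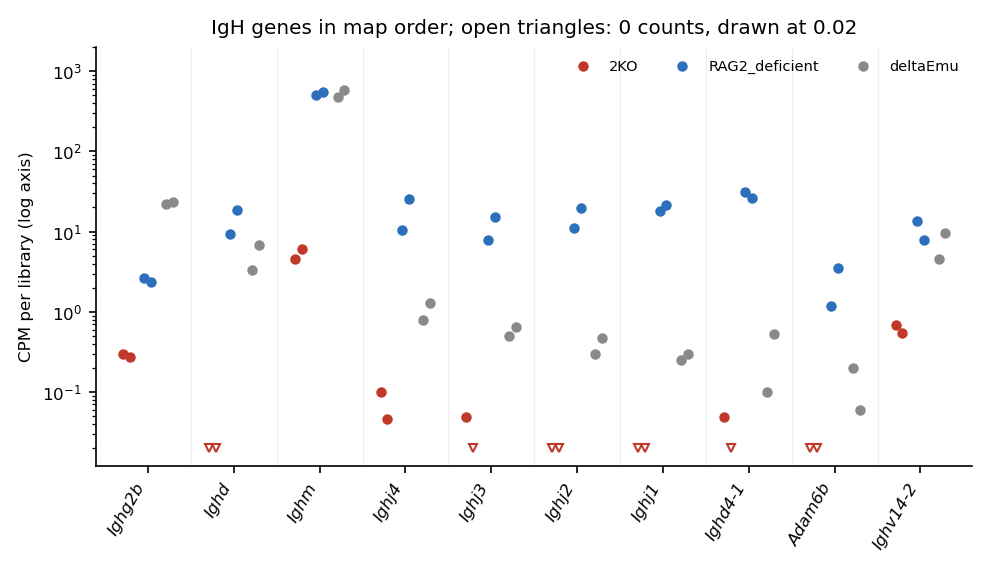
CPM per library (log axis) of selected IgH genes in map order, from constant genes to the V segment Ighv14-2. V segments nearer to Ighm are not drawn. Colours are 2KO (red), RAG2_deficient (blue) and deltaEmu (grey), 2 libraries each. Open triangles mark 0 counts and are drawn at 0.02. Every 2KO point lies below both RAG2_deficient points of its gene, and deltaEmu lies with RAG2_deficient at Ighm but between the groups at the J segments and Ighd4-1.

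The longest run of neighbouring called genes in the genome was this block, 8 genes over 85.5 kb (chr12:113406604-113492057), all lower: Ighd, Ighm, Ighj4, Ighj3, Ighj2, Ighj1, Ighd4-1 and Adam6b. Adam6b, a sperm fertility gene that sits between the V and D segments, had no count in 2KO against 1.18 and 3.56 CPM (at least 16.6-fold lower, adjusted p = 0.0227), a call lost without 2KO replicate 3 (adjusted p = 0.0917) or replicate 1 (0.0549) or either deltaEmu library (0.0624 and 0.061). Among 78 tested genes within 5 Mb of Ighm that are not immunoglobulin segments, none was called higher by edgeR (4 at an unadjusted p of 0.05, 0 by DESeq2) and 5 were lower: Eml1, Adam6b and the predicted genes Gm30948, Gm19331 and Gm5441. Gm30948 stood at 2.87 and 2.76 CPM in 2KO and at 57.5 and 101 CPM in RAG2_deficient (log2 fold change -4.82 ± 0.38, adjusted p = 0.001). Gm5441 stood at 0.148 and 0.046 CPM against 5.04 and 13.9 CPM (adjusted p = 0.00542). In deltaEmu both were at 3.74 CPM or less, as in 2KO. The calls of Gm30948 and Gm5441 held in every alternative, whereas 2 of the 5 remained without either 2KO library, without either deltaEmu library and with 4 libraries alone. The median log2 fold change of the 78 was -0.02. Of all tested genes, 3.08% were called lower and 1.23% higher.

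The V segments moved in both directions. Of 183 entries 59 passed the filter, and 4 were called higher and 7 lower. Of all tested genes, 1.23% were called higher and 3.08% lower. Of the 59, 28 were at or under 3 counts per library in both groups compared. Those with no count in either group passed the filter through deltaEmu. The 183 entries summed to 305 and 434 CPM in deltaEmu. Their sum was low in the groups compared, 20.1 and 13.6 CPM in 2KO and 42.5 and 29.5 CPM in RAG2_deficient, which did not overlap. The most abundant, Ighv14-2 (572 kb from Ighm), stood at 0.693 and 0.551 CPM in 2KO and at 13.4 and 7.89 CPM in RAG2_deficient (log2 fold change -4.09 ± 0.49, adjusted p = 0.00583), the one V call that held in every alternative. Its neighbour Ighv14-1 had 1 count in 2KO against 1.80 and 0.825 CPM (ratio 53.2, interval 9.08 to 2149, adjusted p = 0.029). The other lower segments, Ighv1-18, Ighv1-23, Ighv1-41, Ighv1-74 and Ighv1-75, were at or below 1.13 CPM except Ighv1-75 (3.11 and 2.53 CPM in RAG2_deficient).

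The 4 V segments called higher lay 1871 to 2577 kb from Ighm, in the distal part of the V region, and those called lower lay 509 to 2411 kb away. Ighv1-66 stood at 3.71 and 2.07 CPM in 2KO and at 0.622 and 0.361 CPM in RAG2_deficient (log2 fold change 2.56 ± 0.47, adjusted p = 0.0297). Ighv1-85 stood at 1.29 CPM in both 2KO libraries and had 1 count in RAG2_deficient (ratio of 2KO to RAG2_deficient 45.6, interval 7.85 to 1835, adjusted p = 0.0169). Ighv8-8 and Ighv1-83 were at 0.551 to 1.19 CPM in 2KO and at 0.103 CPM or less in RAG2_deficient. Apart from Ighv14-2, each of these called segments had at most 75 counts in a library of either group, and how reads with several matches were counted is not known here. Calls fell from 4 to 0 or 1 without 2KO replicate 1 or 3, RAG2_deficient replicate 2 or either deltaEmu library for higher, and from 7 to 1 without either 2KO library and to 2 without either deltaEmu library for lower. Of 31 segments above the floor in at least 1 group, 11 were above and 20 below a log2 fold change of 0, with a median of -1.56 when segments with no count in a group are set at their bound.

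**Figure D3:**
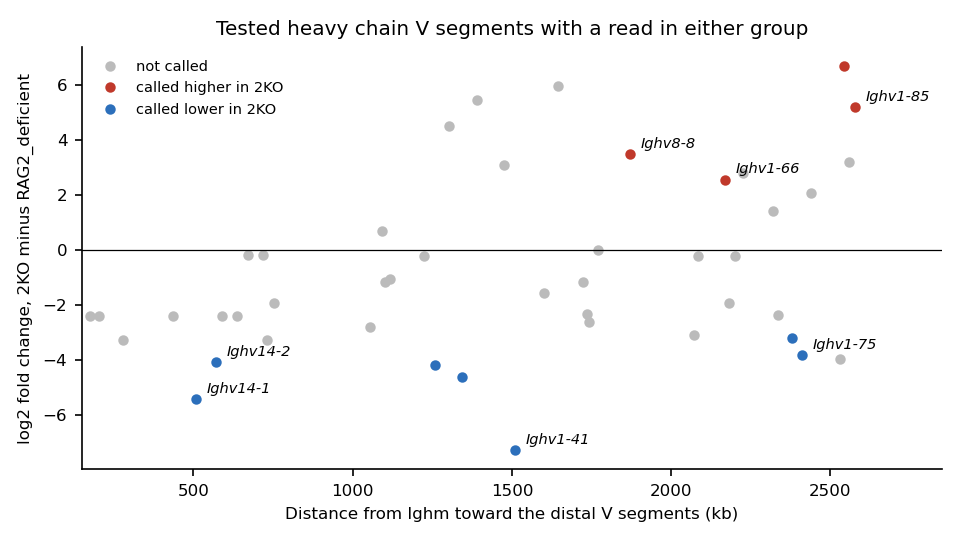
Log2 fold change (2KO minus RAG2_deficient) of tested heavy chain V segments with a read in either group, against distance from Ighm in kb toward the distal V segments. Called segments are coloured: the 7 lower lie from 509 to 2411 kb, the 4 higher from 1871 kb outward; values of segments with no count in a group depend on the prior count of the fit.

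Light chain genes, which are joined later in development, were low in both groups. Igkc, the κ constant gene, stood at 5.49 and 3.68 CPM in 2KO and at 5.60 and 4.90 CPM in RAG2_deficient, against 622 and 684 CPM in deltaEmu. The groups compared overlapped at Igkc (log2 fold change -0.20 ± 0.25, adjusted p = 0.756). Of 65 tested κ V segments 1 was called higher and 1 lower. Most passed the filter through deltaEmu, where κ V segments summed to 571 and 770 CPM, against 2.80 to 7.68 CPM in the groups compared. Only 17 had a log2 fold change above 0 and 15 below it. The others had no count in either group compared and could not be called. No κ J segment and none of the 7 λ entries was called by edgeR (0 of the κ J and 4 of the λ entries at an unadjusted p of 0.05, 1 λ entry by DESeq2). Igha, the α constant gene, had at most 2 counts in a library of either group and 715 to 721 CPM in deltaEmu.

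All 6 components of the pre-B cell receptor were lower in level in 2KO, and 3 passed the test. The surrogate light chain of this receptor pairs with the first heavy chains, and Cd79a and Cd79b encode its signalling chains. Igll1 (λ5), a surrogate light chain gene, stood at 131 and 82.3 CPM in 2KO and at 410 and 437 CPM in RAG2_deficient (log2 fold change -1.99 ± 0.31, adjusted p = 0.0169). Vpreb2, its partner, stood at 20.9 and 11.2 CPM against 77.0 and 43.1 CPM (adjusted p = 0.0487), and Cd79b at 56.3 and 33.7 CPM against 114 and 98.8 CPM (adjusted p = 0.0451). No component overlapped between the groups, as was the case for 46.5% of all tested genes. Vpreb1 (adjusted p = 0.0602), Vpreb3 (0.0832) and Cd79a (0.0872) were not called, with log2 fold changes of -1.95, -1.65 and -1.49. The median of the 6 was -1.78, against 0 over all tested genes. The 3 calls became 0 without 2KO replicate 3, 2 without 2KO replicate 1, 1 without either deltaEmu library, 5 without RAG2_deficient replicate 2 and 6 with DESeq2.

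Of 15 recombination genes 3 were lower and none was higher by edgeR (0 also at an unadjusted p of 0.05 and by DESeq2). Of all tested genes, 3.08% were called lower and 1.23% higher, the shares to set beside this list and the Rag2 neighbours below. Rag1, the partner of Rag2 in the recombinase, stood at 269 and 146 CPM in 2KO and at 772 and 979 CPM in RAG2_deficient (log2 fold change -2.08 ± 0.35, adjusted p = 0.0225). Dntt, the enzyme that adds nucleotides at joints, stood at 230 and 153 CPM against 540 and 594 CPM (-1.57 ± 0.27, adjusted p = 0.0227). Xrcc6 (Ku70), a DNA end-binding repair protein, stood at 125 and 95.4 CPM against 220 and 245 CPM (-1.08 ± 0.20, adjusted p = 0.029). All 3 were separate between groups, as was every called gene, and deltaEmu lay nearer to 2KO at each. Of the 15, 7 did not overlap, against 46.5% of all tested genes. Rag2 itself, the gene named in the RAG2_deficient label, stood at 20.9 and 13.7 CPM in 2KO and at 22.8 and 25.4 CPM in RAG2_deficient (adjusted p = 0.406). No label gives the extent of the Rag2 deletion, and the count spans the gene, so it is no check of the genotype. The median of the 15 genes was -0.24, and the 3 calls became 0 without 2KO replicate 3 or either deltaEmu library and 2 without 2KO replicate 1. Of 42 tested genes within 5 Mb of Rag2 on chromosome 2, none was higher by edgeR (2 at an unadjusted p of 0.05, 0 by DESeq2) and 3 were lower: Rag1, the predicted gene Gm13920 and Prrg4, the last at an adjusted p of 0.05. The lower calls became 0 without 2KO replicate 3 or either deltaEmu library, 1 without 2KO replicate 1 and 5 without RAG2_deficient replicate 1.

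Transcription factors of early B cells showed the same direction at a smaller size. Of 20 listed, 4 were lower and none higher by edgeR (0 also at an unadjusted p of 0.05 and by DESeq2), with a median of -0.59. Ebf1, which starts the B program, stood at 136 and 103 CPM in 2KO and at 239 and 496 CPM in RAG2_deficient (log2 fold change -1.62 ± 0.36, adjusted p = 0.049). Pax5, which fixes B identity, stood at 75.0 and 48.1 CPM against 135 and 210 CPM (-1.49 ± 0.31, adjusted p = 0.0419). Erg (-1.34 ± 0.24, adjusted p = 0.0269) and Bach2 (-1.39 ± 0.30, adjusted p = 0.0461), 2 further factors of pro-B and pre-B cells, were also lower. For Ebf1 and Bach2 the RAG2_deficient libraries differed more from each other, as a ratio, than the lower of them differed from the nearer 2KO library. Foxo1 (adjusted p = 0.0618) was not called. The 4 calls became 0 without 2KO replicate 3 or either deltaEmu library, 1 without 2KO replicate 1, 2 without RAG2_deficient replicate 2 and 11 without RAG2_deficient replicate 1.

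Among 17 surface receptors of progenitor B cells, 2 were lower and none higher by edgeR (1 at an unadjusted p of 0.05, 0 by DESeq2), with a median of -0.40, where 3.08% of all tested genes were lower and 1.23% higher. Enpep (BP-1), a peptidase that marks late pro-B and pre-B cells, stood at 19.2 and 9.28 CPM in 2KO and at 42.4 and 64.7 CPM in RAG2_deficient (adjusted p = 0.0289). Cd72, an inhibitory coreceptor, stood at 18.9 and 15.3 CPM against 48.3 and 37.2 CPM (adjusted p = 0.0234). Il7r, the interleukin 7 receptor that pro-B cells need, stood at 45.9 and 37.4 CPM against 69.3 and 118 CPM, without overlap but short of the threshold (adjusted p = 0.0544). Kit and Flt3, growth factor receptors of earlier progenitors, overlapped between the groups, with Kit at 79.4 and 78.5 CPM against 63.1 and 93.7 CPM and Flt3 at 86.4 and 74.1 CPM against 87.9 and 80.5 CPM. The 2 calls became 0 without 2KO replicate 3 or either deltaEmu library, 3 without RAG2_deficient replicate 2 and 5 without RAG2_deficient replicate 1.

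Cd79a, expressed through the whole B lineage, gives a second scale for these genes. Per Cd79a count of the same library, Ighm was 0.0641 and 0.170 in 2KO and 2.93 and 4.51 in RAG2_deficient, still far apart. Of the 12 genes of the 4 preceding lists that were called lower, 9 overlapped between the groups on this scale. Pax5, for example, was 1.07 and 1.33 per Cd79a count in 2KO and 0.776 and 1.70 in RAG2_deficient, and Dntt was 3.28 and 4.24 against 3.09 and 4.82. The other 3, Rag1, Igll1 and Vpreb2, remained lower in 2KO, with Rag1 at 3.83 and 4.04 against 4.42 and 7.94 and Igll1 at 1.87 and 2.28 against 2.35 and 3.55. Over all 57 other members of these lists, 36 lay apart and higher in 2KO per Cd79a count, 5 lay apart and lower, and 16 overlapped. Kit, for example, was 1.13 and 2.18 per Cd79a count in 2KO and 0.361 and 0.761 in RAG2_deficient. This scale carries no test. Cd79a itself was lower in level in 2KO, so a gene of equal level in both groups comes out higher per Cd79a count. The share of all tested genes that lay apart on this scale was not computed.

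**Figure D4:**
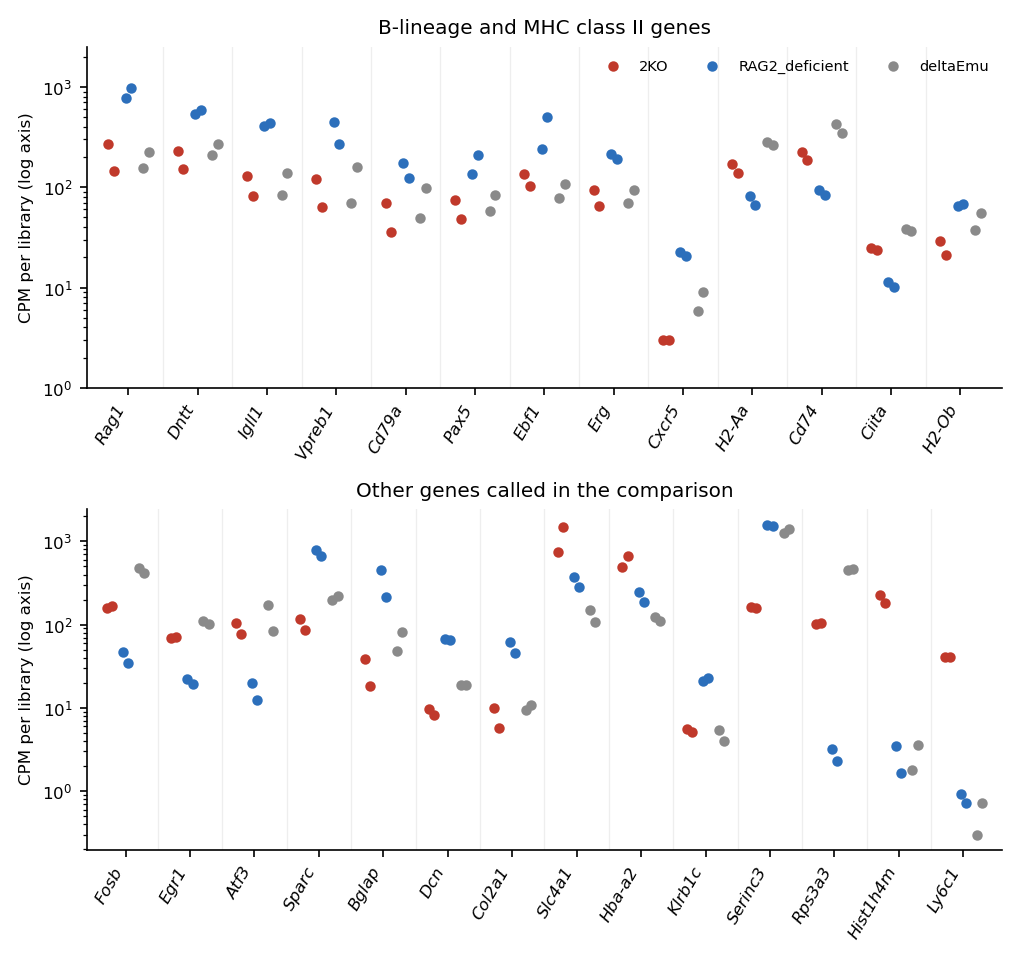
CPM per library (log axis) of B-lineage and MHC class II genes (top) and of other genes called in the comparison (bottom), 2 libraries each for 2KO (red), RAG2_deficient (blue) and deltaEmu (grey). Both 2KO points lie below both RAG2_deficient points from Rag1 to Cxcr5 and at H2-Ob, and above them at H2-Aa, Cd74 and Ciita.

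Genes of later B cells were mixed. Of 20 mature B markers 1 was called higher and 3 lower, with a median of -0.43. Cxcr5, the receptor that leads B cells into follicles, stood at 2.97 and 3.03 CPM in 2KO and at 22.7 and 20.6 CPM in RAG2_deficient (log2 fold change -2.85 ± 0.26, adjusted p = 0.00185), and its call held in every alternative. S1pr1, the receptor for exit into blood (-1.32 ± 0.22, adjusted p = 0.0218), and Tnfrsf13c, the BAFF receptor (-1.16 ± 0.25, adjusted p = 0.0454), were also lower. Klf2, a quiescence and migration factor, was higher, at 55.9 and 63.2 CPM against 33.0 and 27.3 CPM (adjusted p = 0.0297), with deltaEmu at 288 and 311 CPM. The 3 lower calls became 1 without 2KO replicate 3 or either deltaEmu library and the Klf2 call was lost without either 2KO library or either deltaEmu library. None of 18 genes of B cell receptor signalling was called by edgeR (4 at an unadjusted p of 0.05, all lower, and 1 by DESeq2), with a median of 0.00. Of 13 plasma cell genes Slamf7, a surface receptor, was the one called, at 30.9 and 22.9 CPM against 57.3 and 71.7 CPM (adjusted p = 0.0227), a call lost without 2KO replicate 3 (adjusted p = 0.18) or either deltaEmu library.

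MHC class II genes, whose products present peptides to T cells on B cells, macrophages and dendritic cells, went the other way. Of 10 tested, 4 were higher and 1 lower, with a median of 0.81. Ciita, the coactivator that switches the class on, stood at 24.6 and 23.8 CPM in 2KO and at 11.3 and 10.2 CPM in RAG2_deficient (log2 fold change 1.17 ± 0.16, adjusted p = 0.0111). Cd74, the invariant chain, stood at 225 and 185 CPM against 93.3 and 83.3 CPM (1.21 ± 0.21, adjusted p = 0.0242). H2-Aa, a chain of the presenting dimer, stood at 169 and 138 CPM against 81.0 and 66.8 CPM (1.05 ± 0.19, adjusted p = 0.0297). H2-Eb1, another, stood at 84.3 and 67.1 CPM against 39.4 and 27.7 CPM (1.18 ± 0.22, adjusted p = 0.0297). In each of these 4 genes both 2KO libraries were above both RAG2_deficient libraries, as at every gene called higher, and deltaEmu was higher still. H2-Ob, a chain of the inhibitor of peptide loading that is found mainly in B cells, stood at 29.4 and 21.0 CPM against 64.3 and 67.7 CPM (-1.39 ± 0.24, adjusted p = 0.0242). Of the other lineages that carry class II, none of the 10 dendritic genes was called by edgeR (2 at an unadjusted p of 0.05, both lower, and 1 by DESeq2), with 9 of 10 below 0 and a median of -0.41, and of 19 monocyte and macrophage genes 1 was higher and 1 lower. The summed levels of these lists were 463 to 501 CPM in 2KO against 597 to 602 CPM in RAG2_deficient for dendritic genes and 5265 to 6014 CPM against 4185 to 5957 CPM for monocytes and macrophages. Their part in the class II result was not tested. The 4 higher calls became 0 without either 2KO library or either deltaEmu library, 7 without RAG2_deficient replicate 1, and the H2-Ob call was lost without 2KO replicate 3 (adjusted p = 0.185).

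Promoters of the class share a Y box, GATTGG, and 3 are shown because genes with this box moved in opposite directions here. The 250 bases before the start are from the RefSeq promoter table (GRCm38.p6), 5′ to 3′ along the gene, with GATTGG or its reverse complement CCAATC in capitals. H2-Aa is chr17:34287824-34288073 on the reverse strand, H2-Eb1 chr17:34305617-34305866 and H2-Ob chr17:34238655-34238904 on the forward strand.
H2-Aa: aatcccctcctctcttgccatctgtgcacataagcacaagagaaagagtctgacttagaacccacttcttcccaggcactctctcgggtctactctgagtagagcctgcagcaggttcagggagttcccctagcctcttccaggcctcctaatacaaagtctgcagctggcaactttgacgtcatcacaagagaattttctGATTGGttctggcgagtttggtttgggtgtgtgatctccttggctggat
H2-Eb1: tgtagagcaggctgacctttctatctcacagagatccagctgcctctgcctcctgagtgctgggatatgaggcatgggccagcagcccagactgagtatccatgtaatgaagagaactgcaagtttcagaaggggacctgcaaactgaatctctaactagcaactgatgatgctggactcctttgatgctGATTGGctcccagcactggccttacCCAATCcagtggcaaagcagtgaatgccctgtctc
H2-Ob: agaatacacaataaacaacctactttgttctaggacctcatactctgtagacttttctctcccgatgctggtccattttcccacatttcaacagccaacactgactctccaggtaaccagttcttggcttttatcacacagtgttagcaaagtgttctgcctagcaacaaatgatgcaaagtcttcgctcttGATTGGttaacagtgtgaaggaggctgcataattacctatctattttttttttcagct
The box began 49 bases before the start in H2-Aa, 60 in H2-Eb1 (with a second match on the other strand at 35) and 58 in H2-Ob. It was present on either strand in 6 of the 7 class II promoters in the table and in 15.1% of 27025 promoters, 1 per gene. A match is a description of letters, and both a gene that was higher and one that was lower held it.

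Immediate early genes, which cells switch on within minutes of stimulation or handling, were higher in 2KO. All 14 tested of 15 listed had a log2 fold change above 0, with a median of 1.29, and 4 were called. Fosb, a subunit of the AP-1 factor, stood at 160 and 169 CPM in 2KO and at 46.9 and 34.3 CPM in RAG2_deficient (log2 fold change 2.02 ± 0.22, adjusted p = 0.00358). Egr1, a growth response factor, stood at 69.7 and 70.4 CPM against 22.3 and 19.3 CPM (1.75 ± 0.16, adjusted p = 0.00185). Atf3, a stress-induced factor, stood at 103 and 77.7 CPM against 19.8 and 12.3 CPM (2.50 ± 0.38, adjusted p = 0.015). These 3 calls held in every alternative. Dusp1, a phosphatase that ends kinase signalling, was called at an adjusted p of 0.0484 and lost its call without 2KO replicate 3 (0.335), 2KO replicate 1 (0.132) or either deltaEmu library (0.117). The deltaEmu libraries were nearer to 2KO than to RAG2_deficient at all 4. The number of calls was 13 without RAG2_deficient replicate 1.

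Genes of growth moved less. None of 22 proliferation genes was called by edgeR (5 at an unadjusted p of 0.05, all higher, and 0 by DESeq2), although all 22 had a value above 0, with a median of 0.35. Without RAG2_deficient replicate 1 the number called higher was 11. Of 15 genes of ribosome biogenesis and nucleotide supply, Odc1, the first enzyme of polyamine synthesis (226 and 288 CPM against 120 and 117 CPM, adjusted p = 0.0451), and Cad, the first enzyme of pyrimidine synthesis (144 and 149 CPM against 80.9 and 90.3 CPM, adjusted p = 0.0454), were higher. Both calls were lost without either 2KO library or either deltaEmu library, 1 of them without RAG2_deficient replicate 2, and 8 genes were called higher without RAG2_deficient replicate 1. None of 11 Bcl2 family genes was called by edgeR (4 at an unadjusted p of 0.05, 1 by DESeq2).

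Osteoblast, cartilage and stromal genes were lower in 2KO. None of the 5 tested osteoclast genes (9 listed) was called by edgeR, with 2 above and 3 below 0 and a median log2 fold change of -0.11. Of these 5, 1 was lower at an unadjusted p of 0.05 and 1 by DESeq2. Every tested osteoblast (12 of 15 listed), chondrocyte (6 of 10) and marrow stroma gene (16 of 16) had a log2 fold change below 0, with medians of -2.45, -2.44 and -0.91, and 9, 4 and 7 of them were called. Sparc, a bone matrix protein, stood at 118 and 86.1 CPM in 2KO and at 792 and 668 CPM in RAG2_deficient (log2 fold change -2.84 ± 0.25, adjusted p = 0.00152). Bglap (osteocalcin) stood at 38.7 and 18.5 CPM against 449 and 215 CPM (-3.54 ± 0.49, adjusted p = 0.0111). Alpl, the bone alkaline phosphatase, stood at 9.35 and 6.71 CPM against 35.9 and 34.3 CPM (-2.13 ± 0.21, adjusted p = 0.00229). No 2KO library came near a RAG2_deficient library in these 3, and deltaEmu was nearer to 2KO. Among stromal genes, Dcn (decorin) stood at 9.70 and 8.13 CPM against 67.0 and 65.3 CPM (-2.89 ± 0.17, adjusted p = 0.000271) and Lum (lumican) at 4.60 and 3.26 CPM against 32.5 and 37.2 CPM (-3.15 ± 0.24, adjusted p = 0.000885). Il7, the cytokine stroma supplies to pro-B cells, was lower at a low level, 0.792 and 0.735 CPM against 3.23 and 2.17 CPM (adjusted p = 0.0484, and 0.344 without 2KO replicate 3). Cxcl12 and Lepr, which mark the reticular cells around B progenitors, were not called (adjusted p = 0.122 and 0.0819). Col2a1 and Col10a1, collagens of cartilage, were lower by log2 fold changes of -2.78 ± 0.29 and -3.81 ± 0.44 (adjusted p = 0.00305 and 0.0048).

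Of 44 collagen genes 35 outside X and Y were tested, and 17 were lower and 1 higher, with a median of -1.30. Col1a1 and Col1a2, the chains of bone collagen, stood at 746 and 528 CPM and 765 and 508 CPM in 2KO and at 3507 and 3491 CPM and 3933 and 3234 CPM in RAG2_deficient, calls lost without 2KO replicate 3 (adjusted p = 0.134 and 0.146). Col22a1, Col5a2 and Col11a1 were lower by -2.56 ± 0.19, -2.62 ± 0.22 and -3.01 ± 0.26 on the log2 scale (adjusted p = 0.000885, 0.00133 and 0.00136). Col6a5, a collagen VI chain, was the exception, at 8.26 and 7.40 CPM against 0.808 and 0.928 CPM (adjusted p = 0.0138), and its call was lost without 2KO replicate 3 (0.0522). The osteoblast list summed to 279 and 344 CPM in 2KO and to 1363 and 1874 CPM in RAG2_deficient, and the collagens to 1295 and 1836 CPM against 7887 and 8773 CPM. One osteoblast marker (Sost) and 1 chondrocyte marker (Sox9) had no count in 2KO, but neither passed the filter on low counts, so neither was tested. Calls fell without 2KO replicate 3 to 5 (osteoblast), 2 (chondrocyte), 4 (stroma) and 8 (collagen), and 5, 2, 4 and 8 genes of these lists were called in every alternative. Stroma calls rose to 10 and 11 without RAG2_deficient replicate 1 and 2. The part of these cells in the differences of B-lineage genes was not tested.

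**Figure D5:**
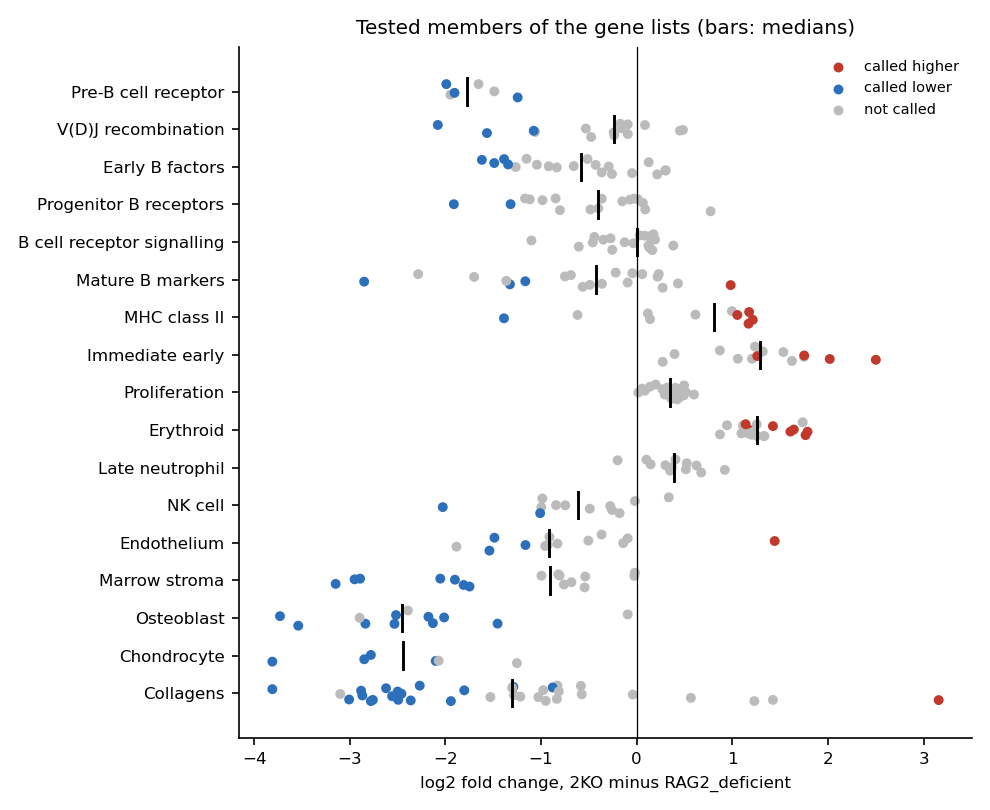
Log2 fold change (2KO minus RAG2_deficient, horizontal axis) of each tested member of 17 gene lists; black bars are medians, red and blue points are genes called higher and lower. Osteoblast, chondrocyte and pre-B cell receptor lists lie wholly below 0, erythroid, immediate early and proliferation lists wholly above it, and the list of B cell receptor signalling is centred on 0.

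Erythroid genes were higher. All 19 tested had a log2 fold change above 0, with a median of 1.25, and 7 were called. None of the 19 overlapped between the groups, as was the case for 46.5% of all tested genes. Slc4a1, the anion exchanger of red cells, stood at 738 and 1486 CPM in 2KO and at 374 and 280 CPM in RAG2_deficient (log2 fold change 1.77 ± 0.37, adjusted p = 0.0439). Bpgm, which makes the compound that lowers the oxygen affinity of haemoglobin, stood at 123 and 171 CPM against 56.4 and 37.9 CPM (1.64 ± 0.25, adjusted p = 0.0169). Hba-a2, an α-globin gene with a near-identical copy, stood at 499 and 676 CPM against 248 and 189 CPM (1.43 ± 0.24, adjusted p = 0.0233). Replicate 3 was the higher 2KO library at all 3, and deltaEmu was below both groups at Slc4a1 (149 and 108 CPM) and Hba-a2 (123 and 110 CPM), while at Bpgm (45.7 and 37.1 CPM) it overlapped RAG2_deficient. At each of the 7 called genes deltaEmu was nearer to RAG2_deficient. The 7 calls became 0 without 2KO replicate 3 or either deltaEmu library, 11 without 2KO replicate 1, 3 without RAG2_deficient replicate 2, 15 without RAG2_deficient replicate 1 and 19 with DESeq2.

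Other blood lineages gave few calls. None of the 5 primary granule genes and none of the 12 late neutrophil genes was called by edgeR (0 and 2 at an unadjusted p of 0.05, 0 and 1 by DESeq2), with medians of 0.49 and 0.39. Without RAG2_deficient replicate 2, 7 late neutrophil genes were called higher, and without RAG2_deficient replicate 1, 4 primary granule genes were. Natural killer cell genes had 2 of 12 called lower and a median of -0.62. Klrb1c (NK1.1), a receptor of these cells, stood at 5.64 and 5.15 CPM against 21.1 and 22.8 CPM (log2 fold change -2.03 ± 0.22, adjusted p = 0.00377), a call that held in every alternative. Klrk1 (NKG2D), an activating receptor, was called at 0.0495 and was lost without 2KO replicate 3 (0.298), 2KO replicate 1 (0.196), RAG2_deficient replicate 2 (0.0733) or either deltaEmu library.

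T cell genes were low, at 38.4 to 49.2 CPM in sum over the list, and 1 of 15 tested was called higher. Cd3e, a chain of the T cell receptor complex, had 0.742 and 0.505 CPM in 2KO and no count in RAG2_deficient (at least 3.66-fold higher, adjusted p = 0.0397), and its call was lost without 2KO replicate 3 (0.145), 2KO replicate 1 (0.132), RAG2_deficient replicate 2 (0.0804) or either deltaEmu library (0.102). At most 2 genes were called in each of 3 further lists. Fcer1a, the IgE receptor of basophils and mast cells, was higher (32.1 and 23.6 CPM against 11.8 and 8.97 CPM, adjusted p = 0.0201). All 12 genes of its list were above 0, with a median log2 fold change of 0.50. The platelet chemokine Ppbp was lower (1.53 and 0.827 CPM against 10.3 and 4.49 CPM, adjusted p = 0.037). Of the 12 megakaryocyte genes, Ppbp among them, 11 were below 0, with a median of -1.12. In the monocyte and macrophage list (median -0.24), Cd14, the monocyte receptor for lipopolysaccharide, was higher (88.2 and 52.9 CPM against 25.1 and 8.97 CPM, adjusted p = 0.0493). Mrc1, a macrophage scavenger receptor, was lower (57.2 and 44.5 CPM against 96.4 and 88.9 CPM, adjusted p = 0.039). These 4 were not called without 2KO replicate 1 or either deltaEmu library, nor, except Fcer1a, without 2KO replicate 3 (adjusted p = 0.0792, 0.217 and 0.383 for Cd14, Ppbp and Mrc1). Of 13 endothelial genes Kdr, Stab2 and Robo4 were called lower and Tie1 higher (9.65 and 8.27 CPM against 3.17 and 3.40 CPM, adjusted p = 0.0218). Of the 13, 12 had a log2 fold change below 0, with a median of -0.91, and Tie1 was the exception. At an unadjusted p of 0.05 in edgeR, 7 were lower and 1 was higher. The calls of these endothelial genes were lost without either 2KO library or either deltaEmu library.

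The largest single increases included many copies of multigene families, for which reads may be shared. BC018473, annotated as an antisense RNA, had 58.3 and 115 CPM in 2KO, none in RAG2_deficient and 256 and 255 CPM in deltaEmu (at least 507-fold higher, adjusted p = 0.000601). Hist1h4m, a histone H4 gene, stood at 230 and 181 CPM in 2KO against 3.48 and 1.65 CPM (log2 fold change 6.34 ± 0.42, adjusted p = 0.00053), with deltaEmu at 1.80 and 3.56 CPM. Rps3a3, a processed pseudogene of a ribosomal protein gene, stood at 101 and 105 CPM against 3.23 and 2.32 CPM (5.22 ± 0.24, adjusted p = 0.000156), with deltaEmu at 456 and 468 CPM. Of 67 tested histone entries 2 were higher by edgeR and none was lower (0 also at an unadjusted p of 0.05 and by DESeq2), with a median of 0.02. The 2 were Hist1h4m and Hist1h2al, the latter annotated as a processed pseudogene and so also counted among those below. These 2 calls held in every alternative, and 30 histone genes were called higher without RAG2_deficient replicate 1. Processed pseudogenes had 38 higher and 3 lower of 657 tested, or 6.24% called, against 4.31% of all tested genes (1.23% higher and 3.08% lower). Ly6c1, a surface protein with a close paralog, stood at 40.6 CPM in both 2KO libraries against 0.933 and 0.722 CPM (5.62 ± 0.32, adjusted p = 0.000271), with deltaEmu at 0.300 and 0.712 CPM.

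Of 24 interferon genes, 18 had a log2 fold change below 0 and 6 above it, with a median of -0.23. Ifi44l, an interferon-induced gene, was the one call among them and went against this direction. It stood at 4.06 and 25.8 CPM against 1 count in each RAG2_deficient library (ratio 272, interval 75.0 to 2252, adjusted p = 0.0227). The 2KO libraries were far apart here, and the call was lost without RAG2_deficient replicate 2 (adjusted p = 0.0735) or deltaEmu replicate 7 (0.0504). Podxl, a sialomucin (5.44 and 18.8 CPM against 0.933 and 0.464 CPM, adjusted p = 0.0218), and Fam132b (erythroferrone), the erythroblast hormone that lowers hepcidin (4.11 and 15.6 CPM against 0.684 and 0.516 CPM, adjusted p = 0.0227), were also among the largest increases, both highest in 2KO replicate 3. Without that library their adjusted p were 0.0673 and 0.0703, and they were also not called without RAG2_deficient replicate 2 or either deltaEmu library.

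Serinc3, a membrane protein that restricts retroviruses, was the most abundant of the largest decreases outside IgH and bone, at 161 and 157 CPM in 2KO, 1587 and 1551 CPM in RAG2_deficient and 1247 and 1402 CPM in deltaEmu (log2 fold change -3.30 ± 0.26, adjusted p = 0.00104). 2KO stood alone here. On chromosome 2 it was part of a run of 3 neighbouring genes called lower that ended with Pkig, a kinase inhibitor (25.6 and 21.2 CPM against 63.7 and 57.2 CPM, adjusted p = 0.00936, and 0.109 without 2KO replicate 3). The other decreases past 8-fold included Cthrc1 (0.198 and 0.322 CPM against 5.78 and 5.83 CPM, adjusted p = 0.00194), a collagen-associated secreted protein, and Pcdh9, a protocadherin (4.16 and 2.85 CPM against 34.3 and 53.6 CPM, adjusted p = 0.00112). The calls of Serinc3, Cthrc1, Pcdh9, Rps3a3 and Ly6c1 held in every alternative.

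Runs of 3 or more neighbouring called genes, chosen for mention after their values were seen, numbered 9, and 8 of them were lower. The bone matrix genes Dmp1, Ibsp and Spp1 lie side by side on chromosome 5 (chr5:104202613-104441050), and Dmp1 stood at 2.52 and 2.11 CPM against 11.9 and 14.6 CPM (adjusted p = 0.00278). In 1 run, 4 neighbouring Gimap genes, GTPases of lymphocytes, were lower on chromosome 6, with Gimap6 at 82.1 and 57.7 CPM against 181 and 167 CPM (adjusted p = 0.0209, and 0.197 without 2KO replicate 3). The one run of higher genes was Apol10a, Apol11a and Apol11b on chromosome 15, apolipoprotein L family members, with Apol11b at 110 and 150 CPM against 24.1 and 16.1 CPM (log2 fold change 2.69 ± 0.25, adjusted p = 0.0019) and deltaEmu at 17.2 CPM or less.

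The deltaEmu group shares the fit and gives each call a further level to set beside it. At 426 of the 493 lower genes and 115 of the 197 higher genes its mean lay nearer to 2KO than to RAG2_deficient on the log2(CPM + 0.5) scale. Its 4 Y-linked genes summed to 164 and 132 CPM, so its pools also hold male mice, as those of 2KO do and those of RAG2_deficient do not. The part of sex in this nearness was not tested. At the 3 called constant genes it lay nearer to RAG2_deficient, and at all 20 called osteoblast, chondrocyte and stromal genes nearer to 2KO.

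The RAG2_deficient libraries differed from each other with the length of the transcript. Among protein-coding genes of at least 5 CPM in either group, the median log2 ratio of replicate 1 to replicate 2 was 0.97 for 335 genes under 1000 bases of summed exons and -0.39 for 1528 genes over 8000 bases. In 2KO the ratio of replicate 1 to replicate 3 ran from 0.26 to -0.08 over the same classes. The median difference between the groups was small in every class, from -0.07 to 0.07. The calls were spread less evenly. Of the 1528 genes over 8000 bases 84 were called lower and 11 higher, and of the 335 under 1000 bases 6 lower and 3 higher. The part of length in these calls was not tested. Short genes with wide RAG2_deficient values, such as the 76 tested ribosomal protein genes (85110 and 40780 CPM in sum in RAG2_deficient, 64220 and 50980 CPM in 2KO, 0 higher and 2 lower by edgeR, with 0 higher at an unadjusted p of 0.05 and by DESeq2), are the ones this spread touches most.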

How the data were processed

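Stranded total RNA libraries (500 ng of RNA, miRNeasy extraction, per the labels' protocols) were analysed from 1 table of unnormalized counts that the authors deposited. STAR 2.4.0a (alignment) and featureCounts in Subread 1.4.6-p1 (counting) are the tools, and GRCm38 the genome, per the submitters' processing notes. The annotation release, strandedness in counting and handling of multiply mapped reads are each not given in the sources used here, so counts of near-identical copies, overlapping genes and antisense genes are uncertain. The 100 control entries (at most 3.9e-05% of counts in a library compared) stayed out of library sizes and tests. Gene types come from GENCODE vM21 (44217 symbols matched).

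The 6 femoral libraries were fitted together in R 4.3.3 with edgeR 4.0.16: low counts removed by filterByExpr at a minimum of 10, TMM scaling, a quasi-likelihood F test of 2KO minus RAG2_deficient with 3 residual degrees of freedom, and Benjamini-Hochberg adjustment over 16538 genes. Genes of X and Y (529 tested) were dropped afterwards. CPM use TMM-adjusted library sizes, and SE is the log2 fold change over the root of F. An exact permutation test of 2 libraries against 2 cannot give a p below 0.333. In data simulated on this comparison (16538 genes), 80.7% of 600 4-fold and 16.7% of 600 2-fold changes were recovered, with 52 and 7 false calls. Alternatives were DESeq2 1.42.0, RLE factors, no filter, abundant gene classes or X and Y left out beforehand, the 4 libraries alone, and each library left out.

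The gene lists, the members and the rule for named genes were chosen with earlier results of these data known. Named by rule were the top 15 calls by fold in each direction (at least 5 CPM in the higher group, no overlap, no segments, predicted names or pseudogene names), 4 members of each list (those of lowest adjusted p), and 15 fixed genes. Not all of them are described, and further genes are given to complete a list, a pair or a run.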

Additional observations from a re-analysis of the deposited data

How the results depend on the processing

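No paired analysis was possible because the groups share only 1 replicate number, which the labels tie to no common mouse or day. The 690 calls (197 higher, 493 lower) became 700 (199, 501) with RLE factors, 686 (197, 489) with X and Y left out beforehand and 670 (192, 478) without abundant gene classes. They became 1124 (396, 728) with DESeq2, 1918 (692, 1226) without the filter on low counts and 204 (60, 144) with the 4 libraries alone. Leaving out 1 library gave 145 to 3131 calls, 63 to 1525 higher and 79 to 1606 lower. Of the 690, the calls shared with the main fit were 666 with DESeq2, 203 with 4 libraries alone, 139 without 2KO replicate 3 and 688 without RAG2_deficient replicate 1. The share of calls that were higher was 28.6%, and it was 46.4% without 2KO replicate 1, 45.5% without 2KO replicate 3 and 48.7% without RAG2_deficient replicate 1. Fits without a deltaEmu library or with 4 libraries alone have fewer samples to estimate the spread, by construction. For the other changes the cause was not tested. No called gene named in the text changed direction. Some genes that were not called changed sign when 1 library was left out: Igha ran from -2.38 (without 2KO replicate 1) to 3.04 around 0.65, with -0.092 without RAG2_deficient replicate 1, Flt3 from -0.169 to 0.047 around -0.07, Igkc from -0.496 to 0.076 around -0.20, and Kit from -0.237 to 0.324 around 0.01 (log2 fold changes). Differences near 2-fold were mostly below what this design recovers.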
